A study of Mus musculus with 8 samples.

Results

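Bulk RNA sequencing of mouse alveolar macrophages, which live in the air spaces of the lung and clear them of particles and surfactant, was read here for the D-type cyclins, the kinases they activate and the inhibitors of those kinases. The members were the 10 genes Ccnd1, Ccnd2, Ccnd3, Cdk4, Cdk6, Cdkn1a, Cdkn1b, Cdkn2a, Cdkn2b and Cdkn2c, taken as the entries of the deposited count table that carry these symbols. They were 10 of 37310 genes in the table and 10 of the 14537 genes with enough counts to be tested. Cdkn2a passed that filter only through the cultured cells, where its counts were high. The study had 4 groups of 2 libraries, and each library was a pool of 3 mice or 3 cultures. The texAM group held cells of C57BL/6 mice that were expanded in culture, given through the trachea to C57Bl/6-Ly5.1 (CD45.1) mice aged 8 weeks or 2 months, and sorted from the lung 4 months later as live, CD45.2+ SiglecF+ CD11c+ single cells. How long they had been cultured before transfer is not given. The exAM group was expanded alveolar macrophages of 8 weeks old C57BL/6 mice after 2 months of culture, not sorted. The tAM group was C57BL/6 alveolar macrophages sorted by the same gate 4 months after transplantation, with no culture named in the labels. The age of the tAM recipients is given as 2 months, and a mouse age of 8 weeks is given for all 4 groups, HostAM included. The HostAM group was the resident cells of the recipient strain, the CD45.1+ SiglecF+ CD11c+ cells of C57Bl/6-Ly5.1 lungs, and the labels do not say if those mice were given cells or PBS. All mice were wild type.

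D-type cyclins are made in response to growth signals, bind CDK4 or CDK6, and the active kinase phosphorylates the retinoblastoma protein, which releases E2F transcription factors and lets a cell pass from G1 into S phase. INK4 inhibitors (from Cdkn2a, Cdkn2b and Cdkn2c) bind CDK4 and CDK6 directly, while CIP/KIP proteins (p21 from Cdkn1a, p27 from Cdkn1b) mainly restrain CDK2 complexes and can also help cyclin D and its kinase to assemble. Alveolar macrophages are long-lived cells that maintain themselves in the lung by local division, and in culture they can be kept dividing with growth factors.

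Promoter windows of the inhibitors that were called between exAM and tAM are shown (1 of 2 for Cdkn1a), as the sequences next to the starts of the members whose levels differed. Windows of 250 bases before an annotated start were matched by symbol for 8 of the 10 members (all but Ccnd1 and Ccnd2) in the RefSeq table of build GRCm38.p6, 12 windows in all among 32851. Each sequence reads 5′ to 3′ towards the start on the gene's own strand, and capitals mark matches to a searched motif. Cdkn1b lies at chr6:134920151-134920400 on the plus strand, and the start of Cdkn1a shown lies at chr17:29093519-29093768 on the plus strand. Cdkn2a has separate starts on the minus strand, at chr4:89294620-89294869 for the transcript of p19Arf and at chr4:89282193-89282442 for that of p16Ink4a.
Cdkn1b: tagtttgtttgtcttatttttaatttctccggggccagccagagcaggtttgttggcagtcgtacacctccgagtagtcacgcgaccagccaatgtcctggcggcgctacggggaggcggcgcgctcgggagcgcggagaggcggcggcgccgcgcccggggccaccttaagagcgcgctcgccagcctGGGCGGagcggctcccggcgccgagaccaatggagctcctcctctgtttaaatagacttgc
Cdkn1a: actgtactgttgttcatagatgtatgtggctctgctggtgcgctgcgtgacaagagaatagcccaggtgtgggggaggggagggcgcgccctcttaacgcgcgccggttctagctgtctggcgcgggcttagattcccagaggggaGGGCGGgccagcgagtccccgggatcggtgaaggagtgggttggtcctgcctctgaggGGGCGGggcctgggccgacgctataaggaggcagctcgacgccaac
Cdkn2a (p19Arf start): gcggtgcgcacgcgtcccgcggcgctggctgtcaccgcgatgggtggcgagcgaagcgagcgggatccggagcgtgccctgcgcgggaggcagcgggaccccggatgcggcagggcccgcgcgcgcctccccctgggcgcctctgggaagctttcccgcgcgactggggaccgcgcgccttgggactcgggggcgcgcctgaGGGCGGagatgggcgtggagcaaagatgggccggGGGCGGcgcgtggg
Cdkn2a (p16Ink4a start): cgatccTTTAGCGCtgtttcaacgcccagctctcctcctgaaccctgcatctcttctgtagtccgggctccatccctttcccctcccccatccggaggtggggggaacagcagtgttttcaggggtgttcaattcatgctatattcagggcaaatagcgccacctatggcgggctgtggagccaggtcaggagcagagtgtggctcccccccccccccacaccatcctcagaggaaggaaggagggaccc

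Both strands were searched for 8 motifs. The SP1 motif GGGCGG was held by 7 of the 12 windows of members and by 32.7% of all windows, and it is the motif capitalised in the windows of Cdkn1b, Cdkn1a and the p19Arf start. The E2F motif TTTNGCGC was held by 1 window of a member, the p16Ink4a start, 244 to 237 bases before it, and by 1.1% of all windows. An E-box CACGTG stood in 2 windows, that of Cdk6 and that of Cdk4, which held it 4 times (6.0% of all windows). CRE (TGACGTCA) stood in the window of Cdkn2b (1.5% of all), FOXO (GTAAACA) in one of Ccnd3 (3.2%) and a TATA box (TATAAA) in that of Cdk6 (12.4%). The letters of AP-1 (TGANTCA, 6.7% of all windows) and STAT (TTCNNNGAA, 7.0%) were in 0 of the 12. GC content was 64.4% for Cdkn1b, 64.8% for the Cdkn1a window shown, 78.4% for the p19Arf start and 60.0% for the p16Ink4a start, against a median of 52.4% over all windows. The Cdkn1a window not shown, at chr17:29090729-29090978, held none of the motifs and had a GC content of 54.0%.

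The libraries held 6546272 counts (exAM replicate 1) to 9154128 counts (texAM replicate 1). The first principal component, 66.8% of the variance, separated the exAM libraries from the 6 lung libraries. All groups carried the sorting markers: Siglecf stood at 279 and 321 CPM in texAM, 228 and 144 CPM in exAM, 332 and 344 CPM in tAM, and 293 and 306 CPM in HostAM. Of 11 alveolar macrophage markers, 5 were called higher and 2 lower in exAM than in tAM. Over all tested genes 21.5% were called higher and 23.2% lower in that comparison. Marco stood at 520 and 471 CPM in exAM and 217 and 245 CPM in tAM, Car4 at 369 and 348 CPM in exAM and 236 and 261 CPM in tAM, and Krt79, a keratin of these cells, at 2.23 and 1.24 CPM in exAM and 192 and 206 CPM in tAM. Lyz2, at 218 and 238 CPM in texAM and 360 and 330 CPM in exAM, was called lower in texAM. Its counts hardly differed, at 2090 and 2087 in texAM and 2098 and 2137 in exAM. Of the markers called higher in exAM than in tAM, Car4, Mrc1, Lyz2 and Chil3 also had similar counts in both groups. Car4 held 2153 and 2251 counts in exAM and 2035 and 2082 in tAM. Marco differed in counts too, with 3034 and 3053 in exAM and 1867 and 1954 in tAM. The part of library scaling in these calls was not tested. Markers of other cells differed in both directions within a list. Summed over 11 epithelial markers the level was 504 to 615 CPM in texAM, 378 to 429 CPM in exAM, 518 to 551 CPM in tAM and 675 to 712 CPM in HostAM. Nearly all of the exAM sum was Cdh1, called higher in exAM (422 and 375 CPM) than in tAM (208 and 263 CPM), while 9 markers were called lower, with Cyp2f2 and Bpifa1 at 0 counts in exAM. Over 11 lymphocyte markers the sum was 394 to 425 CPM in texAM, 371 to 416 CPM in exAM, 279 to 337 CPM in tAM and 244 to 310 CPM in HostAM. Most of it in exAM was Il7r, called higher there (382 and 306 CPM) than in tAM (20.1 and 27.2 CPM), while 5 markers were lower and Cd3e and Cd3g were at 0. Over 6 dendritic cell markers the sum was 94.2 to 149 CPM in texAM, 53.3 to 74.3 CPM in exAM, 109 to 112 CPM in tAM and 98.1 to 181 CPM in HostAM. Most of it in exAM was Clec9a, called higher there (64.5 and 48.6 CPM) than in tAM (34.9 and 24.1 CPM), while 4 markers were lower and Flt3 and Ccr7 were at 0. Over 9 endothelial and stromal markers the sum was 6.37 to 7.99 CPM in texAM, 54.4 to 65.5 CPM in exAM, 1.28 to 3.51 CPM in tAM and 2.19 to 2.65 CPM in HostAM. In exAM it was mostly Pdgfra (19.55 and 41.5 CPM) and Cdh5 (28.6 and 17.8 CPM), both at 0 in tAM. Of the 5 tested markers 4, with Kdr (1.89 and 2.625 CPM) among them, were called higher in exAM than in tAM. These 4 passed the filter only through their exAM counts, so their calls are given as a description. Pecam1, by contrast, was at 5.85 and 7.53 CPM in texAM and 1.201 and 0.309 CPM in exAM and was higher in texAM, and Col1a1, Col1a2 and Col3a1 were at 0 in exAM. The 4 Y-linked genes, led by Ddx3y and Kdm5d, summed to 0 CPM in texAM, 16.1 to 18.0 CPM in exAM, 0 CPM in tAM and 0 to 0.230 CPM in HostAM, so culture and the sex of the mice cannot be told apart. Markers at 0 counts in exAM passed the filter only through lung libraries, so calls on them are likewise given as a description. The part of all these differences in the results below was not tested.

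Ccnd1 encodes cyclin D1, the D cyclin most tied to mitogen signals (ENSMUSG00000070348, GRCm38 chromosome 7, 144929931 to 144939925, minus strand). It stood at 15.6 and 15.7 CPM in texAM, 567 and 360 CPM in exAM, 13.0 and 15.5 CPM in tAM, and 20.1 and 35.6 CPM in HostAM, on the counts-per-million (CPM) scale after TMM normalization of library sizes. Both cultured libraries lay far above all 6 lung libraries. By edgeR's quasi-likelihood test, with Benjamini-Hochberg adjustment over all tested genes and a call at an adjusted p under 0.05, Ccnd1 was higher in exAM than in tAM by 5.02 ± 0.30 on the log2 scale (SE, adjusted p = 1.10e-06), which is 32.5-fold. Against HostAM the log2 fold change of exAM was 4.06 ± 0.28 (adjusted p = 2.98e-06). In texAM it was lower than in exAM, with a log2 fold change of -4.89 ± 0.30 (adjusted p = 1.21e-06), 29.6-fold. Among the lung groups HostAM had the highest libraries and the other two lay together, but no difference was called: log2 -0.83 for texAM over HostAM (95% interval -1.47 to -0.19, adjusted p = 0.257) and -0.96 for tAM over HostAM (-1.61 to -0.31, adjusted p = 0.304). DESeq2 called both of these, at adjusted p of 0.0357 and 0.0187, and over the alternatives tried the adjusted p ran from 1.54e-04 to 0.652 for texAM and from 1.09e-05 to 0.704 for tAM.

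Ccnd2, cyclin D2 (ENSMUSG00000000184, chromosome 6, 127125162 to 127152193, minus strand), is a close relative of cyclin D1. It reached 535 and 598 CPM in texAM, 1079 and 932 CPM in exAM, 483 and 545 CPM in tAM, and 551 and 546 CPM in HostAM. The exAM libraries were again above all others and the lung groups lay within one range. Ccnd2 was higher in exAM than in tAM by 0.97 ± 0.10 (log2, adjusted p = 3.26e-05) and than in HostAM by 0.87 ± 0.10 (adjusted p = 6.50e-05), and the log2 fold change of texAM over exAM was -0.83 ± 0.10 (adjusted p = 9.50e-05). Ccnd3, cyclin D3, the D cyclin prominent in lymphoid cells (ENSMUSG00000034165, chromosome 17, 47505051 to 47599691, plus strand), ran the other way in its means without a call. It stood at 66.1 and 59.1 CPM in texAM, 55.2 and 31.8 CPM in exAM, 56.1 and 71.1 CPM in tAM, and 76.9 and 45.4 CPM in HostAM. The exAM libraries were below both tAM libraries but overlapped those of HostAM, and both exAM and HostAM varied widely. Its log2 fold change for exAM over tAM was -0.55 ± 0.30 (95% interval -1.20 to 0.11, adjusted p = 0.153). Without exAM replicate 1 it was -0.98 and called (adjusted p = 0.0451), and the adjusted p ran from 0.0259 to 0.678 over the alternatives. Against HostAM the log2 fold change of exAM was -0.49 ± 0.29 (adjusted p = 0.195), and -0.82 and called without HostAM replicate 2 (adjusted p = 0.0438, between 0.0438 and 0.897 under the alternatives).

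**Figure D1:**
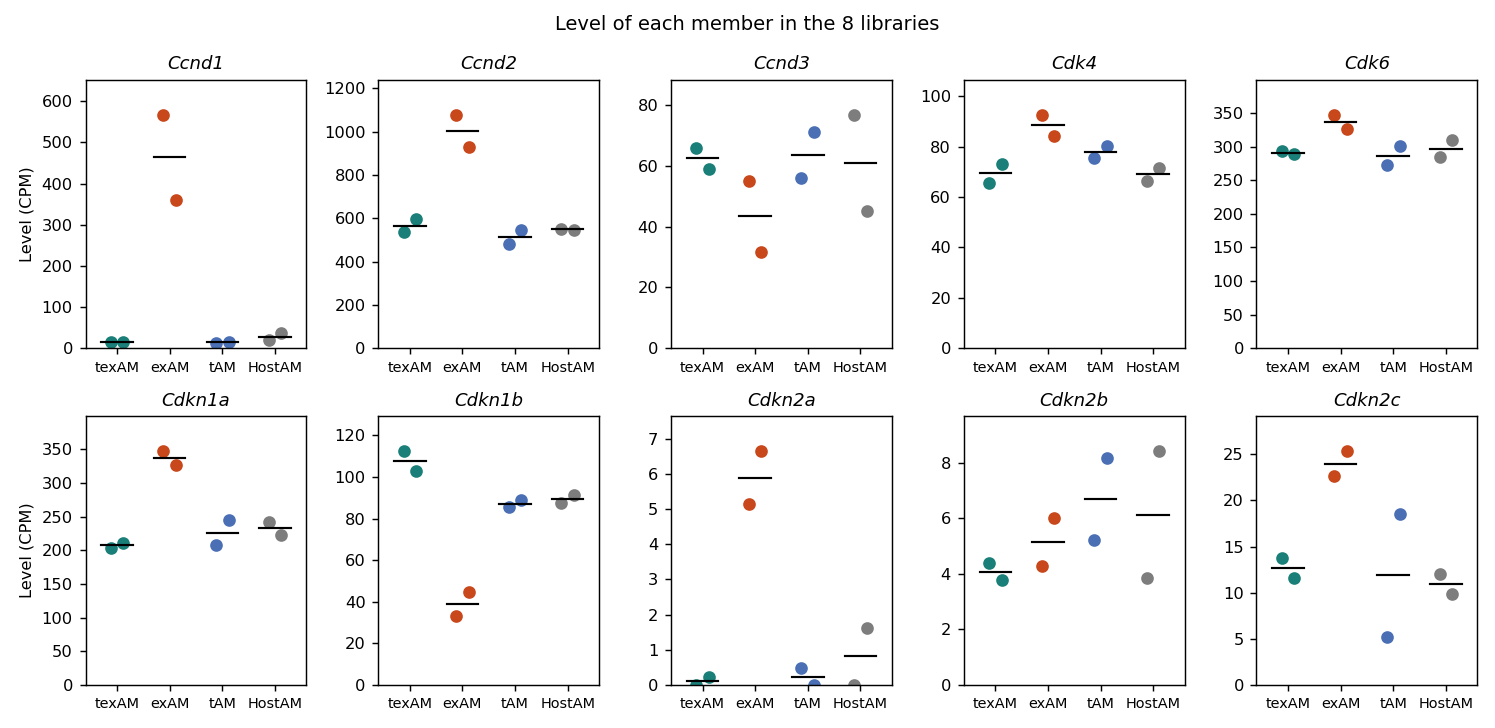
Level of each of the 10 members in CPM (vertical axes, each starting at 0 with its own scale) in the 8 libraries, grouped as texAM, exAM, tAM and HostAM; points are libraries and lines the means of 2. The exAM points of Ccnd1, at 567 and 360 CPM, stand above all others, and those of Cdkn1b, at 33.3 and 44.5 CPM, below all others.

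Set per length, as CPM per kb of the longest annotated transcript, the makeup of the D cyclins differed between culture and lung. Ccnd1 made up 3.93% and 3.69% of the summed level in texAM, 45.1% and 38.2% in exAM, 3.69% and 3.82% in tAM, and 4.78% and 8.85% in HostAM. Ccnd2 held 79.9% and 82.9% in texAM, 50.7% and 58.5% in exAM, 80.9% and 79.2% in tAM, and 77.5% and 80.2% in HostAM. With these lengths Ccnd2 was the largest share in every library, and Ccnd1 exceeded Ccnd3 in both exAM libraries and was below it in all 6 lung libraries. The ranks depend on the length used: per kb of all annotated exons, Ccnd1 exceeded Ccnd2 in exAM replicate 1 (49.9% against 47.5%) but not in exAM replicate 2 (42.7% against 55.3%), and it exceeded Ccnd3 in HostAM replicate 2 (10.7% against 7.305%). The share of Ccnd3 was 4.26% and 3.28% in exAM and 10.9% to 17.8% in the lung libraries. The summed D cyclin level was 106 and 114 CPM per kb in texAM, 336 and 252 in exAM, 94.3 and 109 in tAM, and 112 and 107.5 in HostAM. Among all tested genes with a length, the per-length level of Ccnd1 was above that of 95.5% and 98.2% in the exAM libraries and of 30.8% to 50.9% in the lung libraries. These shares are given as values and were not tested.

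**Figure D2:**
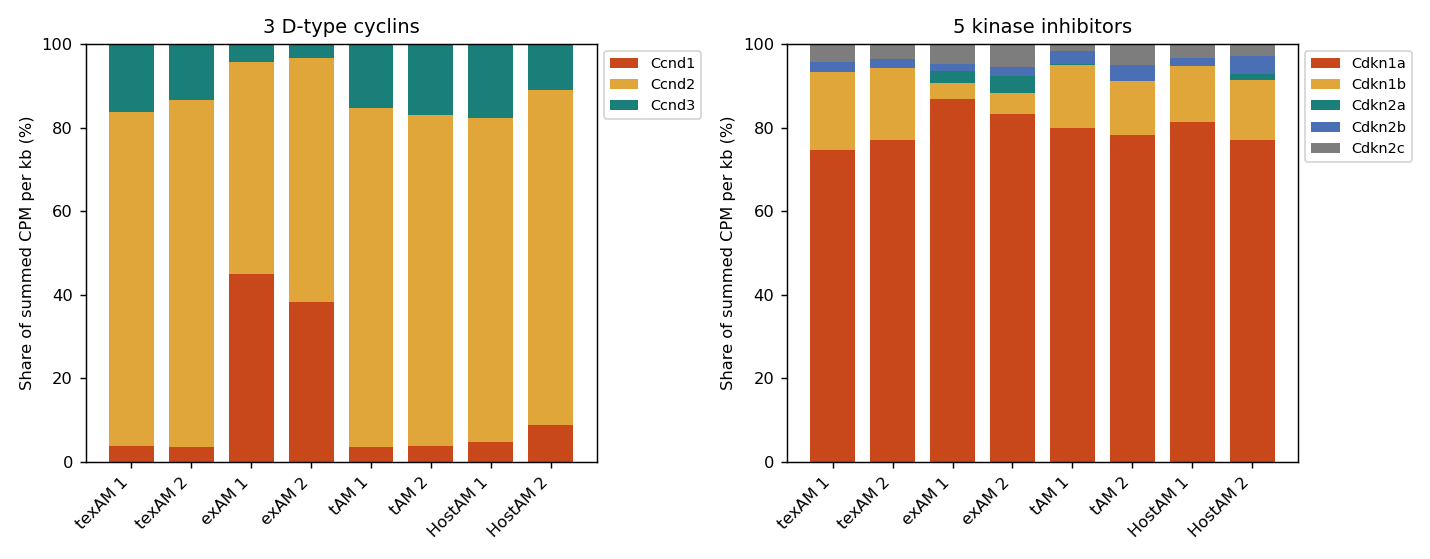
Share in percent of each D cyclin (left) and each inhibitor (right) in the summed CPM per kb of longest transcript of its family, 1 bar per library, without error bars. Ccnd1 takes 45.1% and 38.2% of the D cyclin bar in exAM and at most 8.85% in the lung libraries, while Cdkn1a fills most of every inhibitor bar.

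The catalytic partners moved little. Cdk4 (ENSMUSG00000006728, chromosome 10, 127063534 to 127067920, plus strand) stood at 65.7 and 73.1 CPM in texAM, 92.6 and 84.3 CPM in exAM, 75.4 and 80.1 CPM in tAM, and 66.5 and 71.4 CPM in HostAM. The exAM libraries were the highest, by a margin that did not reach a call. The log2 fold change was 0.19 (95% interval -0.13 to 0.50, adjusted p = 0.308) for exAM over tAM, which turned to -0.02 when libraries were scaled by their totals alone, and 0.36 (0.05 to 0.67, adjusted p = 0.0613) for exAM over HostAM. Cdk6 (ENSMUSG00000040274, chromosome 5, 3341485 to 3531008, plus strand) stood at 294 and 289 CPM in texAM, 348 and 327 CPM in exAM, 273 and 301 CPM in tAM, and 284 and 310 CPM in HostAM. Here too the exAM libraries lay above all others, by 1.18-fold over tAM (log2 0.23, 95% interval 0.03 to 0.43, adjusted p = 0.0581). With DESeq2 size factors that difference was called (adjusted p = 0.0468), and over the alternatives its adjusted p ran from 0.0406 to 0.781. Per kb of the longest transcript, Cdk4 held 55.6% to 60.8% of the summed level of the kinases in the 8 libraries, but per kb of all annotated exons it held 49.0% to 54.3%, with Cdk6 the larger in texAM replicate 1 and HostAM replicate 2. The exons of Cdk4 share 641 bases (19.7%) with Tspan31 on the other strand, and Tspan31 was called higher in exAM than in tAM (log2 1.00, adjusted p = 7.61e-04). The strand setting of the counting is not given in the sources used here, so reads of these genes cannot be told apart in the shared bases.

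Among the CIP/KIP inhibitors the cultured cells differed in opposite directions. Cdkn1a, which encodes p21, an inhibitor induced by p53 and by other stress and differentiation signals (ENSMUSG00000023067, chromosome 17, 29090976 to 29100727, plus strand), stood at 204 and 211 CPM in texAM, 347 and 327 CPM in exAM, 207 and 245 CPM in tAM, and 242 and 223 CPM in HostAM. Both exAM libraries exceeded all lung libraries. The log2 fold change was 0.57 ± 0.10 for exAM over tAM (adjusted p = 0.00138), 0.53 ± 0.10 for exAM over HostAM (adjusted p = 0.00218) and -0.70 ± 0.10 for texAM over exAM (adjusted p = 4.23e-04). Cdkn1b, which encodes p27, an inhibitor typical of resting cells (ENSMUSG00000003031, chromosome 6, 134920401 to 134925513, plus strand; window shown above), stood at 112 and 103 CPM in texAM, 33.3 and 44.5 CPM in exAM, 85.4 and 88.9 CPM in tAM, and 87.4 and 91.4 CPM in HostAM. Its exAM libraries were below all 6 lung libraries, and the texAM libraries were the highest of all. Against tAM the log2 fold change of exAM was -1.16 ± 0.16 (adjusted p = 2.82e-04), 2.24-fold lower, and against HostAM it was -1.20 ± 0.16 (adjusted p = 2.41e-04). In texAM it was 2.77-fold higher than in exAM (log2 1.47 ± 0.16, adjusted p = 6.65e-05). The excess of texAM over tAM, 0.31 on the log2 scale (95% interval -0.04 to 0.65), was not called (adjusted p = 0.669), nor was that over HostAM, 0.27 (-0.07 to 0.61, adjusted p = 0.509). By share of the summed CPM per kb of the 5 inhibitors, Cdkn1b held 18.8% and 17.2% in texAM, 3.81% and 5.17% in exAM, 15.0% and 13.0% in tAM, and 13.4% and 14.4% in HostAM. Cdkn1a held 74.6% to 86.8% in every library.

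Of the INK4 genes, Cdkn2a (ENSMUSG00000044303, chromosome 4, 89274471 to 89294653, minus strand) was close to the limit of detection outside culture. Its transcripts encode p16Ink4a, which binds CDK4 and CDK6, and p19Arf, which protects p53 from MDM2, and a count per gene cannot separate them. The libraries held 0 and 2 counts in texAM, 30 and 43 in exAM, 4 and 0 in tAM, and 0 and 14 in HostAM, which made 0 and 0.228 CPM, 5.15 and 6.64 CPM, 0.464 and 0 CPM, and 0 and 1.61 CPM. A count of 0 allows up to 3 counts, or 0.313 CPM in texAM replicate 1, 0.376 CPM in tAM replicate 2 and 0.331 CPM in HostAM replicate 1. Both exAM libraries were above all others, and a single HostAM library held all counts of that group. Since the gene entered the test only through its exAM counts, its calls against exAM are given as a description. Cdkn2a was called higher in exAM than in tAM (73 against 4 counts, log2 4.55 ± 1.61, adjusted p = 0.0413) but not than in HostAM (73 against 14 counts, log2 2.86 ± 1.42, adjusted p = 0.126). These differences were not shown to differ, since tAM over HostAM was not called (adjusted p = 0.802). It was called lower in texAM than in exAM (2 against 73 counts, adjusted p = 0.0255), where exAM over texAM by summed counts was 54.4-fold with a counting interval of 14.5 to 458. These calls were the least firm of the family. That against tAM was lost on leaving out any of the 4 libraries compared (adjusted p of 0.117 without exAM replicate 1, 0.158 without exAM replicate 2, 0.0513 without tAM replicate 1 and 0.165 without tAM replicate 2), and over all alternatives its adjusted p ran from 3.72e-04 to 0.165. That of texAM against exAM was lost in the same way (0.130 without texAM replicate 1, 0.0574 without texAM replicate 2, 0.0802 without exAM replicate 1 and 0.107 without exAM replicate 2). Without HostAM replicate 2, which held the 14 counts, the difference from HostAM was called (adjusted p = 0.0188).

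Cdkn2b, which encodes p15Ink4b, an inhibitor induced by TGF-beta in many cells (ENSMUSG00000073802, chromosome 4, 89306299 to 89311039, minus strand), lies 11645 bases from Cdkn2a. It did not follow its neighbour: 4.39 and 3.76 CPM in texAM, 4.29 and 6.02 CPM in exAM, 5.22 and 8.15 CPM in tAM, and 3.86 and 8.40 CPM in HostAM. These libraries overlapped, and exAM over tAM was -0.37 on the log2 scale with a 95% interval of -1.56 to 0.81 (adjusted p = 0.595). Cdkn2c, p18Ink4c (ENSMUSG00000028551, chromosome 4, 109660876 to 109667189, minus strand), stood at 13.8 and 11.6 CPM in texAM, 22.6 and 25.3 CPM in exAM, 5.22 and 18.6 CPM in tAM, and 12.01 and 9.90 CPM in HostAM. The exAM libraries were the highest, and the tAM libraries differed widely from each other. Its log2 fold change was 1.02 ± 0.48 for exAM over tAM (adjusted p = 0.109) and 1.13 ± 0.48 for exAM over HostAM (adjusted p = 0.0800). Without tAM replicate 2 the difference from tAM was 2.20 and called (adjusted p = 0.00395, with values between 0.00395 and 0.465 under the alternatives). The difference from HostAM was called by DESeq2's Wald test (adjusted p = 0.0460, with values between 0.0129 and 0.226 under the alternatives).

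Counted over the family, 5 of 10 members were called between exAM and tAM, 4 higher (Ccnd1, Ccnd2, Cdkn1a and Cdkn2a) and 1 lower (Cdkn1b). Of all 14537 tested genes 44.7% were called in that comparison, 21.5% higher and 23.2% lower, so the number of members called was near the background. Cdkn2a passed the filter only through its exAM counts. Leaving it aside, 3 of 9 members were higher and 1 lower in exAM than in tAM, with the same counts against HostAM, and 1 was higher and 3 lower in texAM than in exAM. Against HostAM 3 members were higher and 1 lower in exAM, where 44.1% of all genes were called (20.9% higher and 23.3% lower). Between texAM and exAM 1 member was higher (Cdkn1b) and 4 were lower, with 43.7% of all genes called, 23.2% higher and 20.5% lower. These comparisons share the exAM libraries. The median log2 fold change of the 10 members, Cdkn2a included, was 0.40 for exAM over tAM, 0.45 for exAM over HostAM and -0.52 for texAM over exAM. Without Cdkn2a the middle values of the 9 members were 0.23 (Cdk6), 0.36 (Cdk4) and -0.35 (Cdk4). Over all tested genes the medians were -0.09, -0.08 and 0.11. Between texAM and tAM edgeR called 0 members (0 at an unadjusted p under 0.05, and 0 by DESeq2), where 0.00688% of all genes were called. Between texAM and HostAM it called 0 (1 unadjusted and 1 by DESeq2, both Ccnd1; 0.33% of all genes), and between tAM and HostAM 0 (1 unadjusted and 1 by DESeq2, again Ccnd1; 0.0413%). These shares are of edgeR's calls. DESeq2's Wald test called 0.502%, 2.65% and 1.31% of all genes in these comparisons, in the same order. Shares of all genes at an unadjusted p under 0.05 are not given. The widest intervals between lung groups, for Cdkn2a, reached from -5.35 to 3.34 on the log2 scale for texAM over tAM, while that of Cdk6 was -0.18 to 0.22. In bulk libraries, more cells that express a gene and more RNA per cell cannot be told apart.

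**Figure D3:**
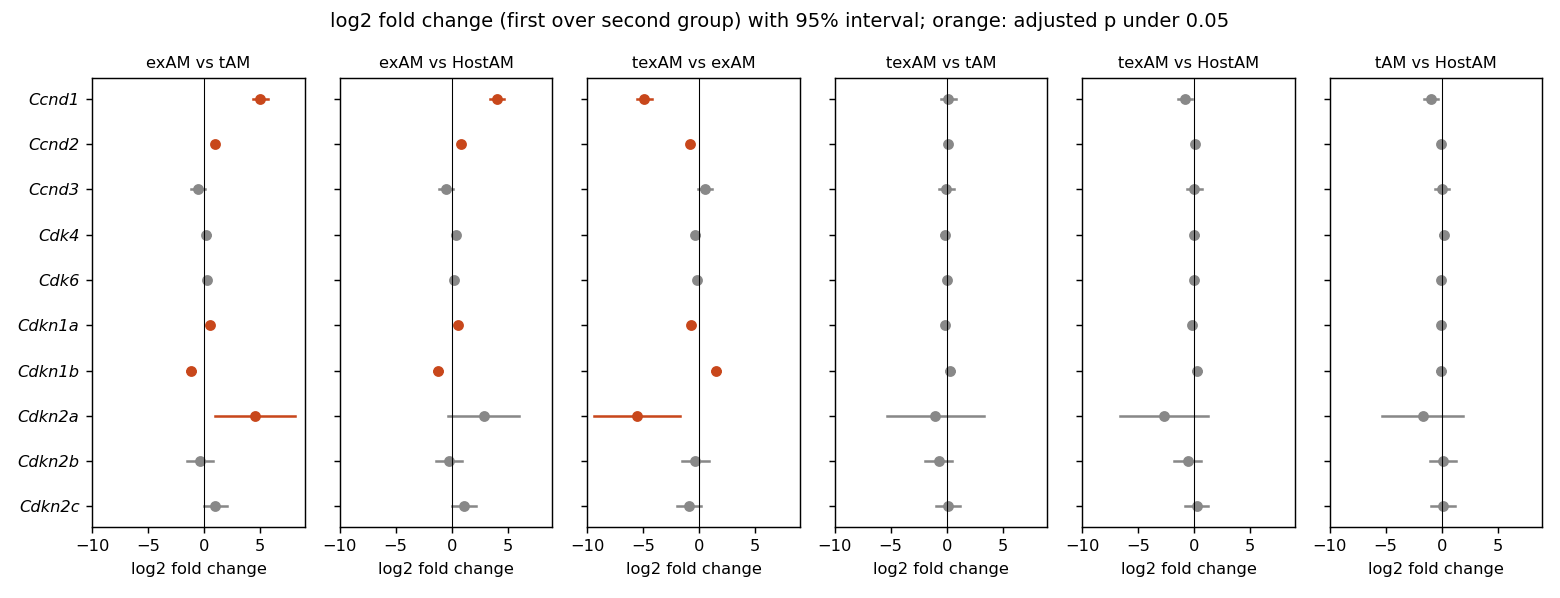
log2 fold change of each member in the 6 comparisons (horizontal axes, first group over second), points with 95% intervals and orange where the adjusted p is under 0.05. Ccnd1 reaches 5.02 for exAM over tAM and -4.89 for texAM over exAM, and no point is orange in the 3 comparisons among lung groups.

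How densely each gene was read is given here beside these fold changes. Over the 6 lung libraries, counts of genes with at most 0.05 counts per base of transcript followed library size with a median slope of 1.41 on log2 scales, those of genes with 0.5 to 0.75 counts per base with 0.73, those with 0.75 to 1 with 0.50, and those with 1.5 to 2 with 0.10. Ccnd2 lay at 0.657 to 0.994 counts per base and Cdkn1a at 0.859 to 1.06 in all 8 libraries, and Ccnd1 lay at 0.884 and 0.623 in exAM and at 0.0299 to 0.0826 in the lung. The remaining 7 members stayed at or below 0.317 counts per base. In counts, Cdkn1a differed little between groups, with 1953 and 1848 in texAM, 2022 and 2117 in exAM, 1786 and 1956 in tAM, and 2196 and 1940 in HostAM, while the effective library sizes behind its CPM were 5830831 and 6476557 in exAM and 7975136 to 9577752 in the lung libraries. The part of this in the fold changes of these 3 genes was not tested. Each kept its calls when libraries were scaled on genes of up to 0.5 counts per base. That setting changes only the library factors and leaves the genes' own counts as they are, so it cannot test this. On the other strand, Ccnd1 shares 1100 exon bases (23.4%) with LTO1, which stood at 43.6 and 43.4 CPM in exAM and 35.6 and 26.1 CPM in tAM (log2 0.49, adjusted p = 0.0783), and Ccnd3 shares 361 (4.11%) with Bysl.

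**Figure D4:**
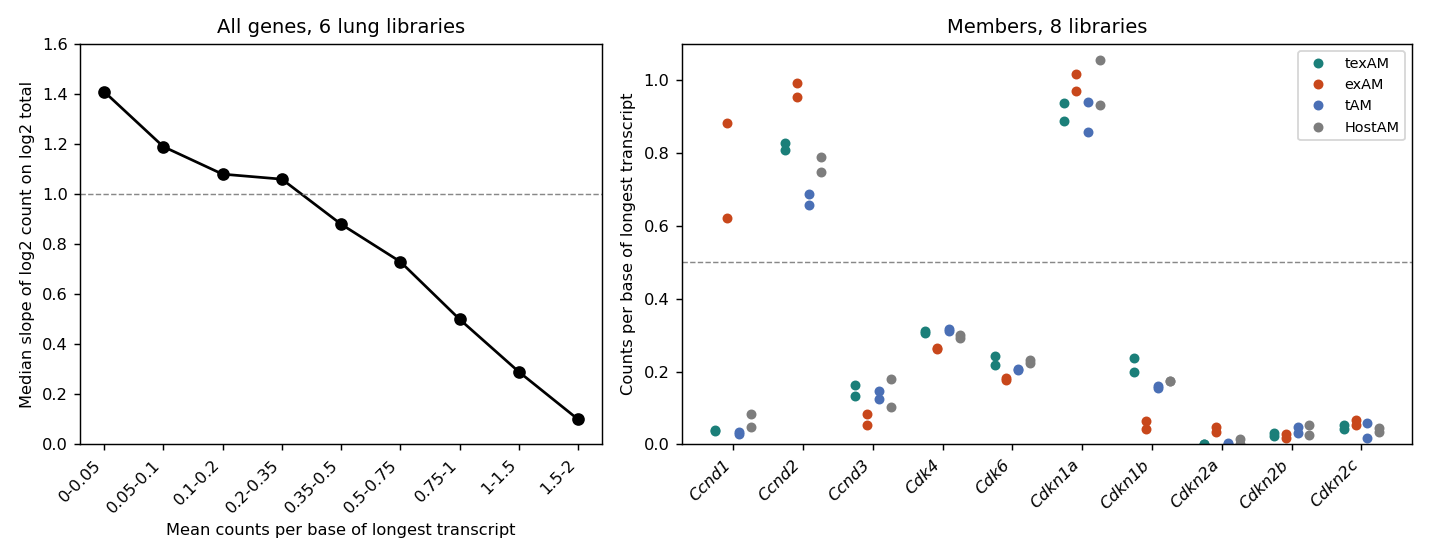
Left, median slope of log2 count on log2 library total over the 6 lung libraries (vertical axis) by the gene's mean counts per base of longest transcript (horizontal axis), falling to 0.10 in the densest class. Right, counts per base of each member in the 8 libraries, coloured by group, with the dashed line at 0.5; Ccnd2, Cdkn1a and the exAM points of Ccnd1 lie above it.

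Of 24 tested genes around the D cyclins (E cyclins and Cdk2, the CDK-activating kinase, pocket proteins, E2F and DP factors and others), 5 were higher and 5 lower in exAM than in tAM, with a median log2 fold change of 0.15. These counts were near the shares over all tested genes (21.5% higher and 23.2% lower, median -0.09), and the genes below are described one by one. Cdkn1c, which encodes p57, the third CIP/KIP inhibitor, stood at 1.98 and 1.37 CPM in texAM, 23.8 and 18.1 CPM in exAM, 0.232 and 0.125 CPM in tAM, and 0 and 0.115 CPM in HostAM. Its summed counts in exAM were 115-fold those in tAM by library-scaled counts (256 against 3 counts, counting interval 38.9 to 561, adjusted p = 5.60e-05). In texAM it was lower than in exAM (log2 -3.63, adjusted p = 6.30e-04). Rb1, the retinoblastoma protein on which cyclin D kinases act, was at 188 and 146 CPM in texAM, 268 and 412 CPM in exAM, 141 and 135 CPM in tAM, and 161 and 181 CPM in HostAM, and was higher in exAM than in tAM (log2 1.30, adjusted p = 3.44e-04). The activator E2f2 was at 151 and 158 CPM in texAM, 50.4 and 47.1 CPM in exAM, 167 and 152 CPM in tAM, and 170 and 182 CPM in HostAM, lower in exAM than in tAM by log2 -1.71 (adjusted p = 2.85e-06). The repressor E2f7 was at 14.9 and 12.2 CPM in exAM against 21.6 and 31.2 CPM in tAM (log2 -0.96, adjusted p = 0.0331). Cdc25a, a phosphatase that activates CDKs, was the second gene named against HostAM, at 48.0 and 40.8 CPM in exAM and 16.0 and 21.5 CPM in HostAM (log2 1.24, adjusted p = 0.00342).

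Downstream of the kinases, of 18 genes of S phase and mitosis that E2F factors drive, 2 were higher and 8 lower in exAM than in tAM, with a median log2 fold change of -0.38, beside 21.5% called higher and 23.2% called lower, and a median of -0.09, over every tested gene. Against HostAM the counts were also 2 and 8. The proliferation marker Mki67 was at 639 and 553 CPM in texAM, 834.5 and 761 CPM in exAM, 575.5 and 609 CPM in tAM, and 665.5 and 623 CPM in HostAM, higher in exAM than in tAM by 0.43 (log2, adjusted p = 0.00348). Its counts hardly differed between these 2 groups, at 4866 and 4927 in exAM and 4958 and 4858 in tAM. The part of library scaling in this call was not tested. The mitotic cyclin Ccnb1 was at 23.8 and 19.15 CPM in exAM against 10.2 and 12.5 CPM in tAM (log2 0.92, adjusted p = 0.0298). Cdc6, which loads the replicative helicase, was at 18.3 and 16.9 CPM in texAM, 7.72 and 4.01 CPM in exAM, 21.7 and 13.3 CPM in tAM, and 20.4 and 18.4 CPM in HostAM (exAM over tAM log2 -1.58, adjusted p = 0.00769). Cdc20, an activator of the anaphase-promoting complex, was at 6.86 and 2.93 CPM in exAM against 17.9 and 15.05 CPM in tAM (log2 -1.76, adjusted p = 0.00482). Summed over the 18 genes the level was 1642 to 1807 CPM in texAM, 1602 to 1898 CPM in exAM, 1712 to 1719 CPM in tAM and 1724 to 1863 CPM in HostAM, ranges that overlapped. Mki67 was the largest part of every sum, with 834.5 of 1898 CPM and 761 of 1602 CPM in exAM. The sums therefore do not show how the other genes of the list differed.

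Cdkn1a is a target of p53, and 17 other p53 targets were read beside it. Of these, 6 were higher and 2 lower in exAM than in tAM, with a median log2 fold change of 0.61, and 7 were higher and 3 lower than in HostAM. Over all tested genes 44.7% were called against tAM and 44.1% against HostAM, with medians of -0.09 and -0.08, and nothing is read from these counts about the list. The kinase Plk2 was at 19.8 and 7.30 CPM in texAM, 238 and 180.5 CPM in exAM, 15.7 and 5.64 CPM in tAM, and 43.3 and 39.8 CPM in HostAM (exAM over tAM log2 4.28, adjusted p = 5.87e-05). Pmaip1, which encodes the death promoter NOXA, was at 54.0 and 52.3 CPM in exAM against 10.45 and 8.40 CPM in tAM (log2 2.49, adjusted p = 6.98e-05). In the other direction, Btg2, an anti-proliferative gene, was at 160 and 163 CPM in texAM, 28.5 and 33.2 CPM in exAM, 175 and 170 CPM in tAM, and 166 and 159 CPM in HostAM (exAM over tAM log2 -2.48, adjusted p = 3.27e-07). Bax, a mediator of apoptosis, was at 34.5 and 29.5 CPM in exAM against 56.6 and 60.7 CPM in tAM (log2 -0.88, adjusted p = 0.00413). Against HostAM the largest changes also took in Eda2r, a receptor of the TNF receptor family, at 2.40 and 2.47 CPM in exAM and 0 counts in HostAM, at least 14.4-fold higher against a floor of 3 counts over the group (adjusted p = 0.0260). Eda2r passed the filter only through its exAM counts (14 and 16), so this call is given as a description. Gdf15, a stress-induced cytokine, was at 10.6 and 21.5 CPM in exAM and 34.8 and 26.1 CPM in HostAM (log2 -0.92, adjusted p = 0.0470). Bbc3, which encodes the death promoter PUMA, was at 11.7 and 9.92 CPM in texAM and 3.26 and 4.32 CPM in exAM (log2 1.51, adjusted p = 0.0277). The summed level of the 17 was 1212 to 1287 CPM in texAM, 2495 to 2659 CPM in exAM, 1146 to 1166 CPM in tAM and 1229 to 1293 CPM in HostAM. From texAM against exAM the 3 lists gave 3 higher and 3 lower G1 regulators, 6 higher and 1 lower S phase and mitosis genes, and 3 higher and 8 lower p53 targets. Over all tested genes 23.2% were called higher and 20.5% lower there, and nothing is read from these counts about the lists. In the 3 comparisons among lung groups edgeR called 0 genes of these lists, with 0 to 3 per list at an unadjusted p under 0.05. Of all tested genes it called 0.00688% to 0.33% there, so nothing is read from these counts either.

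**Figure D5:**
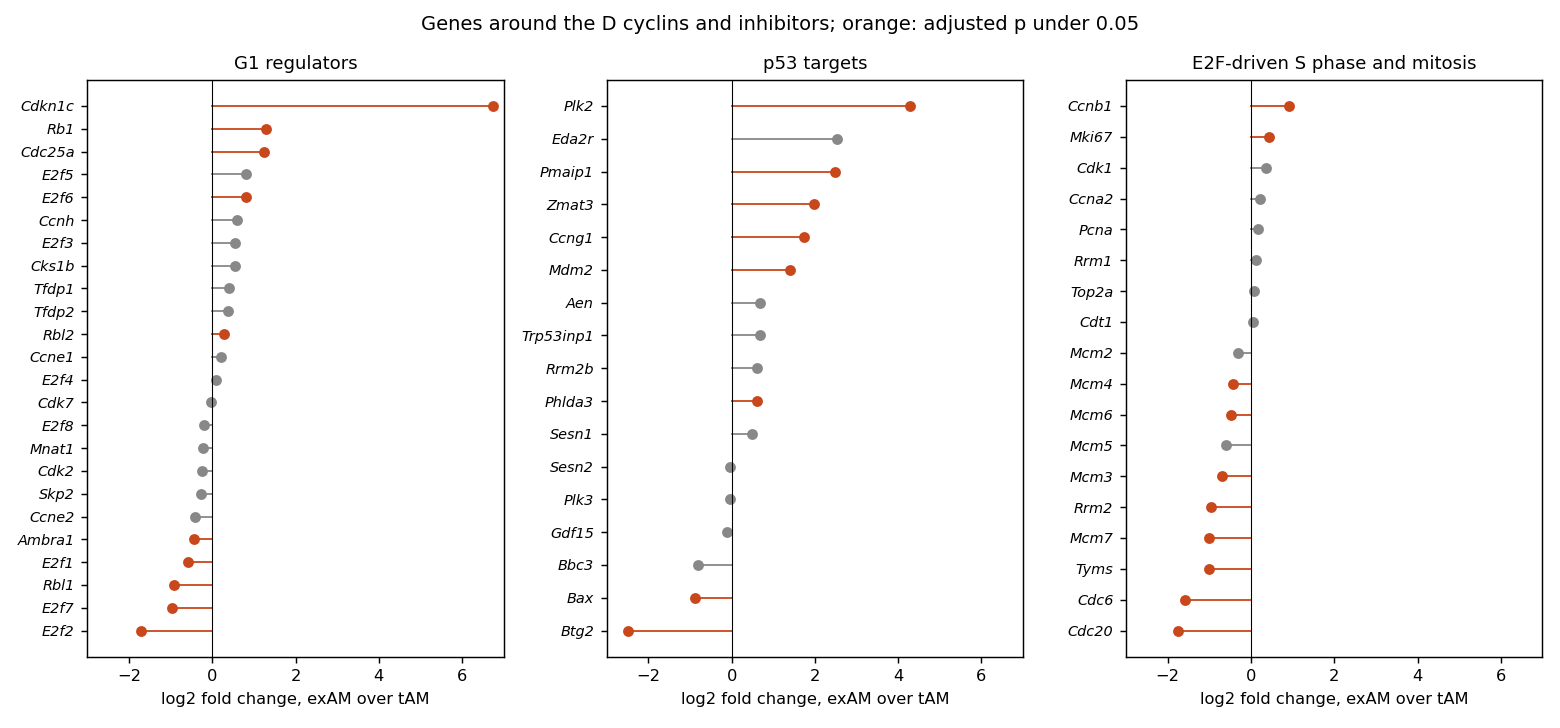
log2 fold change of exAM over tAM (horizontal axis, no error bars) for 24 G1 regulators, 17 p53 targets and 18 S phase and mitosis genes, sorted, orange where the adjusted p is under 0.05. The p53 targets run from Plk2 at 4.28 to Btg2 at -2.48, and 8 of the 10 orange S phase and mitosis genes lie left of 0.

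Genes whose level followed a member most closely over the 8 libraries were ranked by Pearson's r among 9136 genes of at least 10 CPM on average. For Ccnd1 the closest were Tulp4 (r = 0.9970), Gsk3b, which encodes a kinase that marks cyclin D1 for breakdown (r = 0.9969), and Hsd17b12 (r = 0.9961), with 27 genes over 0.99. Gsk3b averaged 542 CPM in texAM, 867 CPM in exAM, 535 CPM in tAM and 571 CPM in HostAM. For Cdkn1b they were Trem1 (r = 0.9950), Psd4 (r = 0.9935) and Mmp25 (r = 0.9928), with 7 genes over 0.99, and Trem1 averaged 71.55 CPM in texAM, 16.45 CPM in exAM, 48.9 CPM in tAM and 53.55 CPM in HostAM. For Cdkn2a they were Vps50 (r = 0.9883), Sri (r = 0.9852) and Pcgf3 (r = 0.9841). The 2 exAM libraries stood apart from the other 6 in each of these genes, so r describes mostly that one contrast.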

How the data were processed

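Counts of reads per gene, whole numbers, were deposited by the authors for 8 libraries, made from 2 ng of RNA per library by single-primer amplification, per the labels' protocols. Per the submitters' processing notes, the tools were Bowtie, HTSeq 0.6.1 and R 3.3 and the build was mm10 (GRCm38), and the strand setting is not given in the sources used here. Library totals were 6546272 to 9154128 counts, and intervals and floors on counts cover counting error only. Genes were filtered by filterByExpr (minimum 10 counts), scaled by TMM and fitted over all 8 libraries, 1 coefficient per group, by edgeR 4.0.16 (R 4.3.3, with limma 3.58.1), with 4 residual degrees of freedom and a biological coefficient of variation of 0.22. The members' tests and intervals used 10.31 to 10.44 degrees of freedom, since the spread was shared between genes. Each SE is the absolute log2 fold change divided by the square root of the F statistic. The libraries of a group are pools, so p-values measure the spread between pools, and same-group libraries differed beyond sampling noise. Lengths and positions are those of GENCODE M21. The scripts were tested on simulated data. The members and gene lists were chosen with earlier results of these data known. All members are named, and from each other list the 2 largest called changes per direction, with markers beside them and the 3 genes most alike Ccnd1, Cdkn1b and Cdkn2a. As alternatives, the filter was dropped or raised to 50 counts, DESeq2 1.42.0 gave size factors or its Wald test, and the other settings were library size alone, TMM on genes of up to 0.5 counts per base, a replicate block, only the 4 libraries compared, and leaving out each library. Shares per length, by the longest transcript, were also computed with the union of a gene's exons. Cdkn2d, a listed G1 regulator, was not analysed here.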

Additional observations from a re-analysis of the deposited data

How the results depend on the processing

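Of 711 recomputed fold changes of members, 653 kept their direction and side of the threshold, 18 became called, 10 lost a call and 30 changed sign. The calls of Ccnd1, Ccnd2, Cdkn1a and Cdkn1b between exAM and each other group held under every alternative tried. Each alternative leaves a gene's own counts as they are, so none can test the part of read density in the calls of Ccnd1, Ccnd2 and Cdkn1a. Cdkn2a lost its call against tAM with library size alone (adjusted p = 0.0504), under the replicate block (0.0611) and on leaving out any library, and fell below a minimum of 50 counts. Library size alone moved the median of all genes for exAM over tAM to -0.29, and for texAM over exAM to 0.33. Few genes were called among lung groups, and these counts moved most. For texAM against tAM the 1 called gene became 238 without a filter, 73 with the DESeq2 Wald test, 2 with only the 4 libraries, 0 under the replicate block and 0 to 2 on leaving out a library. For texAM against HostAM the 48 became 694, 106 with a minimum of 50 counts, 385 with the Wald test, 29 under the replicate block and 1 to 90 on leaving out a library. For tAM against HostAM the 6 became 425, 44 with that minimum, 190 with the Wald test and 0 to 9 on leaving out a library. In both comparisons with HostAM the members called became 1, Ccnd1, without a filter and with the Wald test. The causes were not tested. Replicate numbers did not pair the libraries (correlations of deviations -0.07 to 0.01), and the replicate block gave 6082 called genes for exAM against tAM in place of 6502.

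Sign changes were of uncalled values. With library size alone Cdk4 turned to -0.02 for exAM over tAM and Cdk6 to 0.01 for texAM over exAM and texAM over HostAM, and with TMM on genes of up to 0.5 counts per base Cdk4 turned to -0.00 for texAM over HostAM. On leaving out a library, log2 fold changes ran as follows. For exAM over HostAM Cdkn2b ran from -0.70 to 0.43. For texAM over tAM the ranges were -0.55 to 1.28 (Cdkn2c), -0.19 to 0.16 (Ccnd3), -0.05 to 0.09 (Cdk6) and -4.02 to 3.02 (Cdkn2a). For texAM over HostAM they were -0.09 to 0.02 (Cdk6), -0.07 to 0.09 (Cdk4), -0.31 to 0.47 (Ccnd3), -0.04 to 0.13 (Ccnd2), -5.71 to 3.01 (Cdkn2a) and -1.04 to 0.07 (Cdkn2b). For tAM over HostAM they were -0.12 to 0.02 (Cdk6), -0.16 to 0.08 (Cdkn1a), -0.28 to 0.49 (Ccnd3), -0.33 to 0.79 (Cdkn2b), -1.07 to 0.76 (Cdkn2c) and -5.72 to 4.02 (Cdkn2a). With 2 libraries a group and few counts, depth limits what can be said of Cdkn2a and Cdkn2b.

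Shares of the summed level were also computed per kb of all annotated exons. In texAM, exAM, tAM and HostAM, Ccnd1 then held 4.71%, 46.3%, 4.66% and 8.315% of the D cyclins, Ccnd2 85.15%, 51.4%, 84.2% and 81.9%, and Ccnd3 10.1%, 2.32%, 11.1% and 9.78%. Cdk4 held 50.6%, 53.02%, 53.9% and 49.99% of the kinases and Cdk6 49.4%, 46.98%, 46.1% and 50.01%. Of the inhibitors, in the same order, Cdkn1a held 65.0%, 78.35%, 69.1% and 69.4%, Cdkn1b 26.35%, 7.055%, 20.9% and 20.8%, Cdkn2a 0.109%, 4.15%, 0.238% and 0.731%, Cdkn2b 3.26%, 3.06%, 5.15% and 4.68%, and Cdkn2c 5.27%, 7.38%, 4.58% and 4.32%.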
